A study of Mus musculus with 12 samples.

Results

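The loci described here are the 5-methylcytosine (5mC) and 5-hydroxymethylcytosine (5hmC) peaks of the E14.5 mouse cortex whose nearest annotated gene encodes a histone-modifying enzyme, a chromatin remodeller or a reader of modified histones. They were chosen by gene symbol alone: the Kdm and Jmjd, Setd, Setdb, Kmt2, Ezh, Ehmt, Nsd1 and Dot1l, Hdac and Sirt, Kat, Crebbp and Ep300, Chd, Smarc and Arid, and Cbx, Bmi1 and Brd names. This gave 306 of 55085 5mC peaks and 236 of 47478 5hmC peaks, next to 83 and 74 genes respectively. In all, 94 of the 16293 genes in the tables were included, of which 63 had peaks of both marks. The choice by symbol leaves out genes listed under older names. Among these were Mll1, Mll2, Mll5, Wbp7, Jhdm1d and Myst1 to Myst4, 9 names with 23 5mC and 39 5hmC peaks. No row of either table carried the symbol Ezh2 or Ep300.

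The 3 populations compared are successive stages of 1 lineage, all sorted from the cortex of E14.5 embryos that carried both reporter alleles, Btg2-RFP and Tubb3-GFP, in the heterozygous state. Proliferating progenitors (PP) were negative for both reporters, differentiative progenitors (DP) were RFP+/GFP-, and neurons were GFP+ whether or not they carried RFP. The series lists 12 samples, an immunoprecipitated and an input sample for each population and mark, and DNA of the populations was barcoded and mixed before each pull-down. The tables give 1 mean log2 level per peak and population, with the 3 biological replicates of the study already averaged, so no spread between replicates, no p-value and no count of reads per peak stands behind any difference below. Where 3 values follow each other they are those of PP, DP and neurons, in this order.

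Histone modifiers add or remove acetyl and methyl groups on histone tails, remodellers use ATP to slide or evict nucleosomes, and reader proteins bind the modified tails. Trithorax-type methyltransferases and acetyltransferases are associated with active genes, whereas Polycomb proteins and deacetylases are associated with repression. In the developing cortex, exchange of subunits of the BAF remodelling complex accompanies the passage from progenitor to neuron, and mutations in several of these genes, such as Chd7, Chd8 and Arid1b, cause neurodevelopmental disorders. 5mC is the methylated cytosine written mainly at CpG dinucleotides, and 5hmC is the product of its oxidation by Tet enzymes.

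Peaks of these genes met a RefSeq promoter window of the same gene in a few places, and 2 deacetylase genes are shown because there the peaks reach across CpGs upstream of a transcription start. Hdac7 encodes a class IIa deacetylase and Hdac6 a mainly cytoplasmic deacetylase of tubulin. The sequences are the 250 bases upstream of a RefSeq start on GRCm38.p6 (mm10), read along the minus strand. Capitals mark CpG dinucleotides that lie within the peak named with each line.
Hdac7, second start, chr15:97814864-97815113, 5hmC peak: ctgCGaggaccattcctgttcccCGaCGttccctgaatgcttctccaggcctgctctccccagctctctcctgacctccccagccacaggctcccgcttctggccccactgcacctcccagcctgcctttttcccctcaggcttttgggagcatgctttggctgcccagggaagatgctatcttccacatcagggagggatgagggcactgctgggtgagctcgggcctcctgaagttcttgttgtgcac
Hdac6, chrX:7947890-7948139, 5mC peak: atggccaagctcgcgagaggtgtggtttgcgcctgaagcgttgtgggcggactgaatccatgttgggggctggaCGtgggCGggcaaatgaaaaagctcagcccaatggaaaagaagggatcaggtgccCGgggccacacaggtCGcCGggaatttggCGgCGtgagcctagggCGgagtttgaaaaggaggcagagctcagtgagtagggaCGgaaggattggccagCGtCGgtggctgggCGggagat
The Hdac7 window held 5 CpGs, 3 of them in the 5hmC peak, and 55.6% of 32851 RefSeq windows of this length held at least as many. The Hdac6 window held 17 CpGs, 12 of them in the 5mC peak, and 23.5% of windows held at least as many.

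The 5hmC peak upstream of the second Hdac7 start (chr15:97815027-97815149) had mean levels of 3.86, 4.09 and 4.96. Relative to the median peak of the mark this was a gain of 1.18 on the log2 scale from PP to neurons, larger than that of 92.1% of the 1000 5hmC peaks closest to it in mean level. Of the 10 5hmC peaks next to Hdac7, 5 gained at least 1.5-fold from PP to neurons and none lost as much. Its expression was 2051, 3020 and 4408. The Hdac6 start, on the X chromosome, carried peaks of both marks that changed by less than 1.5-fold between populations. The 5mC level there was 5.76, 5.73 and 5.82, and the 5hmC level at chrX:7947722-7947916 was 5.99, 6.04 and 5.75.

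Throughout, changes are differences of these log2 mean levels after subtraction of the median difference over all peaks of the mark. A locus is called a gain or a loss when its change was at least 1.5-fold, and the words carry no test. The subtraction mattered for 5mC, because the median 5mC peak was lower in neurons than in DP by a log2 difference of -0.18 and lower than in PP by -0.17, and mattered less for 5hmC, with -0.08 from PP to neurons. Low peaks vary more: among all 5hmC peaks, split into 4 classes of equal size by mean level, 58.1% of the lowest class and 14.2% of the highest moved at least 1.5-fold from PP to neurons. Percentiles among the 1000 peaks of like level are therefore given beside many of the named loci. PP-DP and DP-neuron changes of a peak share its DP level and are not independent.

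Most peaks of these genes lay in the gene body or upstream of it. Of the 5mC peaks, 49.3% were inside the gene against 40.2% of all peaks, and of the 5hmC peaks 47.9% against 36.2%. Downstream positions were scarce, with 3.92% of 5mC and 2.54% of 5hmC peaks against 19.7% and 21.4% of all peaks. Set against RefSeq gene limits, 150 of the 151 5mC and all 113 5hmC peaks annotated as inside fell within the named gene. Upstream peaks were more mixed: 64 of 142 5mC and 57 of 116 5hmC peaks lay within another RefSeq gene only, such as Reep3 for Jmjd1c and Ptprf for Kdm4a. A further 12 and 11 upstream peaks lay within the RefSeq limits of the named gene itself, for example Hdac4 and Hdac9, whose RefSeq genes extend beyond the start used by the authors. Exons and introns were not separated here. The mean level of the marks was like that of all peaks, with a median in PP of 5.21 for 5mC against 5.06 and of 4.71 for 5hmC against 4.72.

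As a group these loci changed about as often as all peaks. From PP to DP, 12 of the 306 5mC peaks gained and 19 lost, that is 3.92% and 6.21%, where 4.60% and 5.44% of all 5mC peaks did so. From DP to neurons 16 gained and 23 lost, 5.23% and 7.52% against 5.12% and 9.36% of all peaks. Between PP and neurons 8 gained and 27 lost, 2.61% and 8.82% against 5.00% and 10.2%. Losses of 5mC thus outnumbered gains at each step, as they did among all peaks.

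Among 5hmC peaks past 1.5-fold, gains outnumbered losses, again as among all peaks, while the median of all 236 changes was 0.00 at the PP-DP step and 0.01 over the PP-neuron span. From PP to DP, 30 of the 236 5hmC peaks gained and 9 lost, 12.7% and 3.81% against 11.2% and 4.68% of all 5hmC peaks. From DP to neurons 39 gained and 17 lost, 16.5% and 7.20% against 16.5% and 7.07%. From PP to neurons 58 peaks next to 30 genes gained and 21 lost, 24.6% and 8.90% against 22.1% and 7.71%. Each 5hmC share lay close to its background, so these counts do not set the genes apart. Over both marks, 163 of 542 peaks changed at least 1.5-fold in some pair of populations, where 31.6% of all peaks did. At least 1 such peak was found next to 58 of the 94 genes, 61.7% against 67.0% of all genes, and the other 36 genes had none. For gains from PP to DP, the peaks just inside and just outside the cut-off were next to Kdm5b (0.59) and Arid5b (0.57) for 5mC, and next to Hdac9 (0.62) and Chd7 (0.54) for 5hmC. The counts by role below come from few peaks each and are to be read against the shares of all peaks given here. Differences between roles were not tested.

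**Figure D1:**
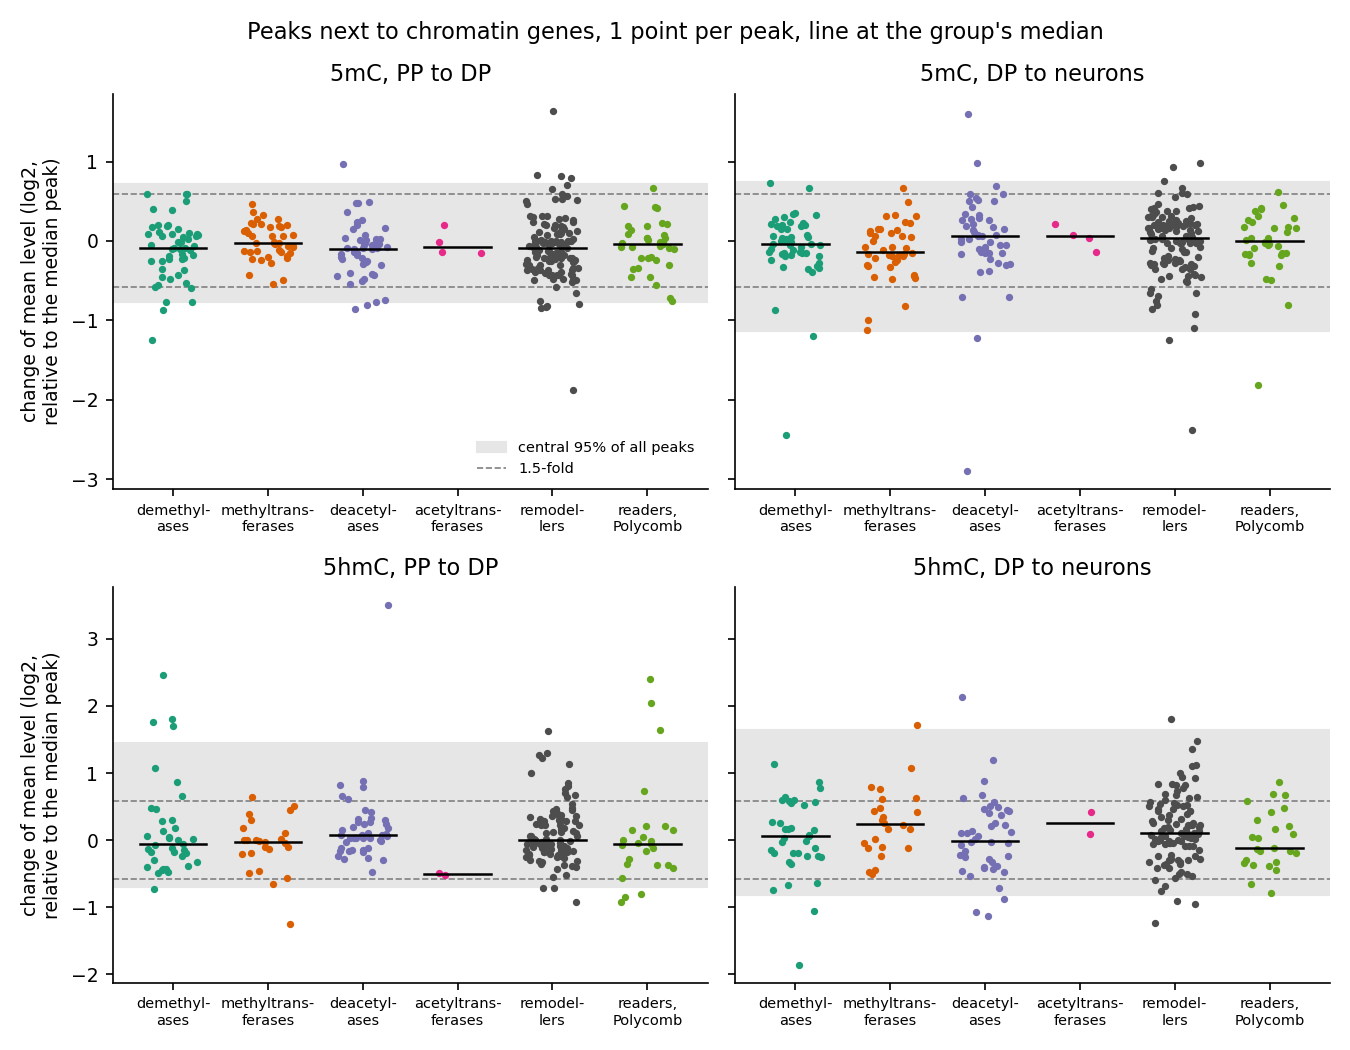
Change of the mean level of each peak next to a chromatin gene (y axis, log2, relative to the median peak of the mark) for 5mC (top) and 5hmC (bottom), from PP to DP (left) and from DP to neurons (right), by the role of the nearest gene. Points are peaks, black lines are medians of the role, grey bands hold the central 95% of all peaks of the mark and dashed lines mark 1.5-fold. Nearly all peaks lie within the bands, and the farthest 5hmC gain from PP to DP is a deacetylase peak at 3.50.

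Deacetylases, here all Hdac and Sirt symbols, remove acetyl groups from histones, although some that the symbol rule includes, such as Hdac6, act mainly elsewhere. They had 50 5mC peaks next to 14 genes and 44 5hmC peaks next to 12. From PP to DP 1 of the 5mC peaks gained and 4 lost, and at the next step 5 gained and 4 lost. 6 5hmC peaks gained and none lost from PP to DP, that is 13.6% and 0% against the 11.2% and 4.68% of all 5hmC peaks, and 5 gained and 4 lost at the next step. The widest changes were next to Hdac4, a class IIa enzyme that shuttles between nucleus and cytoplasm. They were 3.50 for 5hmC and -2.90 for 5mC, at a pair of peaks 112 kb upstream that is described below. Another 5mC peak, 158 kb upstream of Hdac4 (chr1:92306298-92306434, in no RefSeq gene), changed less, with levels of 5.60, 4.85 and 5.66. DP were the low population there: the loss of -0.75 was lower than all but 0.1% of peaks of like level, and the return of 0.98 from DP to neurons was larger than that of all 1000 of them. A 5mC peak inside Hdac8 (chrX:102444283-102444392) had 3.91, 3.40 and 4.83, a gain of 1.60 from DP to neurons, larger than that of 99.7% of like-level peaks.

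Hdac1, a class I enzyme expressed in progenitors, had a 5hmC peak 335 bp after its start (chr4:129542303-129542453) with levels of 4.43, 4.66 and 3.51. It changed by -1.13 from DP to neurons, at percentile 1.1 of like-level peaks, and its expression was 2473, 2407 and 1219. Both measures were thus lowest in neurons. Its paralogue Hdac2 had 1 5mC peak without a 1.5-fold change and 5 5hmC peaks of which 1 lost, with changes from PP to neurons between -0.80 and 0.46, and its expression was 8867, 11496 and 15251. Hdac9 had 4 5mC and 5 5hmC peaks, none past 1.5-fold from PP to neurons. At the single steps, 1 5mC peak lost (-0.80) from PP to DP and 1 gained (0.70) from DP to neurons. For 5hmC, 1 peak gained (0.62) from PP to DP and 1 lost (-1.07) from DP to neurons. The expression of Hdac9 was 1446, 1532 and 646.

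Demethylases remove methyl groups from histone lysines, although Jmjd4 and Jmjd8, which the symbol rule includes, are not known for this activity. They had 51 5mC peaks next to 16 genes and 37 5hmC peaks next to 14. 5mC gains and losses numbered 3 and 6 from PP to DP, and 2 and 3 at the next step. 5hmC gains and losses numbered 7 and 1, and then 6 and 5. Kdm1a, the H3K4 demethylase LSD1, had 2 5hmC peaks and no 5mC peak. The intragenic peak at chr4:136598315-136598509 had 1.90, 4.35 and 4.92, a gain of 2.45 from PP to DP that exceeded 98.7% of peaks of like level. The other, at chr4:136595382-136595549, had 4.39, 5.04 and 5.60. Both peaks thus gained at the PP-DP transition, and the expression of Kdm1a was 6798, 14648 and 16598.

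Kdm6b, an H3K27 demethylase, had 1 peak of each mark. Its 5hmC peak, 12.1 kb upstream within Dnah2, dipped in DP with 4.86, 4.13 and 4.67, a loss of -0.73 from PP to DP, and its 5mC peak changed by 0.36 from PP to neurons. Kdm5c, an X-linked H3K4 demethylase, had 3 5mC peaks, 1 of them lower in DP by -0.77 relative to the median peak, and 4 5hmC peaks that changed by -0.38 to -0.00 from PP to neurons. A 5hmC peak 46.2 kb upstream of Kdm4a (chr4:118226176-118226394, within Ptprf) had 4.83, 5.11 and 4.04, a loss of -1.05 from DP to neurons, below which lay 0.3% of peaks of like level.

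Methyltransferases had 42 5mC peaks next to 13 genes and 24 5hmC peaks next to 11. None of the 5mC peaks changed at least 1.5-fold from PP to DP, and 1 gained and 3 lost at the next step. For 5hmC, 1 gained and 2 lost from PP to DP. At the next step 6 of 24 gained and none lost, against 16.5% and 7.07% of all 5hmC peaks. Setd3, which encodes an actin histidine methyltransferase of the SET family, had a 5mC loss and a 5hmC gain at the same place. Its peaks of both marks at chr12:108120014-108120137 are described with the overlapping pairs below. Setd5, linked to intellectual disability, had a single 5hmC peak inside the gene (chr6:113106462-113106627) with 5.02, 3.76 and 3.96. The loss of -1.25 from PP to DP was lower than all but 0.1% of peaks of like level. Ezh1, the Polycomb H3K27 methyltransferase of non-dividing cells, had 3 5mC peaks and 1 5hmC peak that changed between 0.00 and 0.13 from PP to neurons. Its expression, from the earlier RNA sequencing of the same populations, was 759.5, 962.3 and 2017. Ehmt1 had 3 and 2 peaks without a 1.5-fold change, and Nsd1 had 4 5mC peaks without one and 2 5hmC peaks, of which 1 gained 0.95 from PP to neurons.

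Acetyltransferases were few under this rule, with 4 5mC peaks next to Kat2a, Kat5 and Crebbp and 2 5hmC peaks, both next to Crebbp. None changed at least 1.5-fold. The 5hmC peaks of Crebbp, which encodes the coactivator CBP, changed by -0.52 and -0.49 from PP to DP.

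Remodellers were the largest group, with 123 5mC peaks and 104 5hmC peaks, each next to 26 genes. The group was made from the Chd, Smarc and Arid symbols. Its Arid3, Arid4 and Arid5 genes, which the symbol rule includes, are not known as subunits of ATP-using remodelling complexes. Arid5b alone had 17 of the 5mC and 12 of the 5hmC peaks. 5mC gains and losses were 7 and 7 from PP to DP, and 7 and 11 at the next step. 5hmC gains and losses were 12 and 3, and then 19 and 6. Smarcal1, an annealing helicase of the SNF2 family, had a 5mC peak with a maximum in DP (chr1:72601489-72601603), with 2.70, 4.33 and 1.77. A 5mC peak inside Arid5b (chr10:68202065-68202277) was also highest in DP, with 4.89, 5.55 and 4.46. A 5mC peak 22.5 kb downstream of Arid5a (chr1:36330171-36330391) had 5.38, 4.62 and 4.64, a loss of -0.76 at the first step followed by a change of 0.20. The percentiles of the PP-DP changes of these peaks among like-level peaks were 98.8 for Smarcal1, 98.3 for Arid5b and 0.5 for Arid5a. Smarcd2, a BAF subunit, had an intragenic 5hmC peak (chr11:106267383-106267516) with 3.15, 4.78 and 4.70, at percentile 98.8 from PP to DP.

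Smarca2, which encodes the BAF ATPase BRM, had 9 5hmC peaks, all upstream, of which 4 gained and 1 lost from PP to neurons. The peak 56.7 kb upstream (chr19:26548357-26548489) had 3.34, 3.69 and 5.46, a gain of 1.80 from DP to neurons, larger than 99.3% of peaks of like level. Its expression was 2342, 2876 and 12791. Smarca4, the alternative ATPase BRG1, had 3 5mC peaks without a 1.5-fold change and 1 5hmC peak that changed by -0.71 from PP to DP, and its expression was 25137, 36743 and 58920. Smarcc2 had 2 5mC peaks and Smarcd3 had 1 5mC and 2 5hmC peaks, none past 1.5-fold, although the expression of Smarcd3 was 4550, 4210 and 9437. Arid1b had 11 5mC peaks, of which 2 lost from PP to neurons, and 6 5hmC peaks, of which 1 gained. Chd8 had 4 5mC peaks, of which 1 lost from PP to neurons by -0.59, and 1 5hmC peak without a 1.5-fold change.

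Chd3, a NuRD ATPase, had 2 5hmC peaks upstream that went opposite ways. The peak 2.75 kb upstream (chr11:69371988-69372330) had 6.03, 6.34 and 5.07, a loss of -1.24 from DP to neurons at percentile 0.2. The peak 4.96 kb upstream (chr11:69374260-69374467) had 5.22, 6.02 and 6.62, a gain of 1.48 from PP to neurons at percentile 99. Both lay within the non-coding gene Gm32483, and the expression of Chd3 was 22591, 45121 and 101083. Chd2 had a 5hmC peak 903 bp upstream of its start (chr7:73542590-73542708), within the long non-coding RNA gene Chaserr, with 4.97, 4.25 and 3.32. The loss of -1.57 from PP to neurons was the lowest among the 1000 peaks of like level. It was a stepwise decrease, with -0.72 and -0.91 at the successive steps, while the expression of Chd2 was 10900, 12468 and 9408.

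Readers and Polycomb proteins had 36 5mC peaks next to 11 genes and 25 5hmC peaks next to 10. 5mC gains and losses were 1 and 2 from PP to DP, and 1 and 2 at the next step. 5hmC gains and losses were 4 and 3, and then 3 and 2. Over the whole span from PP to neurons 5 of the 5hmC peaks gained and 6 lost. Cbx2, a chromodomain subunit of Polycomb repressive complex 1, had 2 intragenic 5hmC peaks that were low in PP. The peak at chr11:119028412-119028520 had 1.81, 4.21 and 4.48, and the peak at chr11:119028870-119029038 had 2.07, 4.11 and 4.77. These are low peaks, and their PP-neuron changes were at percentiles of 79.3 and 87.8 among like-level peaks. Cbx7, another such subunit, had an intragenic 5mC peak (chr15:79941614-79941750) with 6.55, 6.98 and 5.99, a loss of -0.81 from DP to neurons at percentile 0.9. An intragenic 5hmC peak of Brd1 (chr15:88701004-88701126) was lowest in DP, with 5.45, 4.65 and 5.21.

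A 5mC and a 5hmC peak overlapped by at least 1 bp at 34 places next to these genes, and at 6735 places in all. This took in 11.1% of the 5mC and 14.4% of the 5hmC peaks, against 12.2% and 14.2% of all peaks. Loss of 5mC together with gain of 5hmC was seen at 1 of the 34 from PP to DP, at 5 from DP to neurons and at 4 from PP to neurons. Among all overlapping pairs the shares were 3.19%, 12.5% and 18.8%, and among the 34 they were 2.94%, 14.7% and 11.8%. The opposite combination, 5mC gain with 5hmC loss, was seen at none of the 34 in any pair of populations. It was rare among all 6735 pairs too, with 12 from PP to DP, 14 from DP to neurons and 15 from PP to neurons. Its absence thus does not set these genes apart. Between PP and neurons 12 of the 34 gained 5hmC and 5 lost 5mC, that is 35.3% and 14.7% against 42.9% and 24.2% of all pairs.

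The 4 pairs with both changes from PP to neurons were next to Hdac4, Brd7, Setd3 and Arid5b. At the Hdac4 pair, 112 kb upstream of the gene and in no RefSeq gene, 5mC (chr1:92260119-92260290) was 4.54, 4.52 and 1.45. 5hmC (chr1:92260081-92260327) was 0.34, 3.84 and 5.02. The gain in 5hmC of 3.50 thus came first, between PP and DP, where 5mC changed by -0.02, and the loss of 5mC of -2.90 came between DP and neurons. This 5hmC level in PP was the lowest of all 236 peaks, and 95.1% of peaks of like level had a smaller gain from PP to neurons. The 5mC changes were at percentiles of 4.6 from DP to neurons and 8.2 from PP to neurons. The expression of Hdac4 was 1607, 2073 and 1580, highest in DP.

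At Brd7, a bromodomain subunit of the PBAF remodelling complex, the pair lay 13.3 kb upstream. 5mC (chr8:88375417-88375553) was 4.13, 3.78 and 1.80, and 5hmC (chr8:88375388-88375514) was 2.22, 3.87 and 4.52, again with the larger 5hmC step before the larger 5mC step. These were low peaks, and their changes of -2.16 and 2.37 from PP to neurons were not far out, with 22.2% and 68.4% of like-level peaks below them. At Setd3 the pair lay inside the gene, 59.2 kb from its start. 5mC (chr12:108120014-108120134) was 6.94, 6.69 and 5.39, and 5hmC (chr12:108120033-108120137) was 3.69, 4.08 and 5.77. Both marks moved mainly from DP to neurons, by -1.13 and 1.71, at percentiles of 0.1 and 99.9 among like-level peaks. At Arid5b the pair lay 72.7 kb into the gene. 5mC (chr10:68205905-68206054) was 4.65, 4.65 and 3.37, and 5hmC (chr10:68205904-68206029) was 3.40, 4.10 and 5.44, so that 5hmC had a gain of 0.71 before 5mC changed. The PP-neuron changes of 5mC and 5hmC there were at percentiles of 4.8 and 98.4.

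A further pair, singled out after its values were seen, behaved differently. Next to Jmjd1c, 10.8 kb upstream and within Reep3, 5mC (chr10:67085246-67085386) was 5.47, 4.22 and 1.60, and 5hmC (chr10:67085232-67085394) was 2.96, 4.66 and 2.78. 5mC decreased at both steps, by -1.25 and -2.44, whereas 5hmC was high in DP only. Its 5hmC changes at the successive steps, 1.70 and -1.86, were at percentiles of 84.2 and 1.2 among like-level peaks. The overall 5mC change of -3.70 was the lowest of the 306 peaks, with 0.4% of like-level peaks below it. Other pairs gained 5hmC without a 1.5-fold loss of 5mC. At the Cbx2 pair 5hmC gained 2.78 and 5mC changed by -0.55. At a Chd7 pair 111 kb into the gene 5hmC gained 2.29 and 5mC changed by -0.19, and at the Smarca2 pair 56.7 kb upstream the changes were 2.21 and -0.33. Among like-level peaks these 5mC changes were at percentiles of 3.7 for Cbx2, 31.4 for Chd7 and 5.9 for Smarca2. Those of the 4 pairs above were at 8.2 for Hdac4, 22.2 for Brd7, 0.1 for Setd3 and 4.8 for Arid5b. The division thus depends on the cut-off, and without subtraction of the median 5 pairs had both changes.

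**Figure D2:**
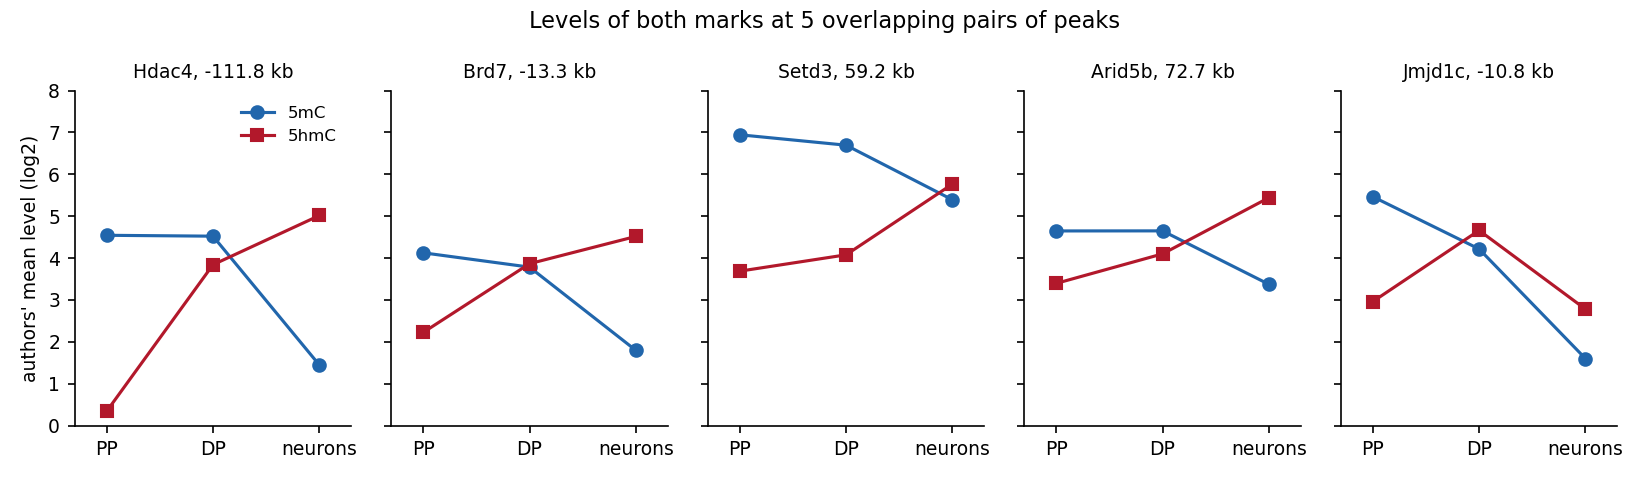
Mean log2 level of 5mC (circles) and 5hmC (squares) in PP, DP and neurons (x axis) at overlapping peaks next to Hdac4, Brd7, Setd3, Arid5b and Jmjd1c, titled with the distance in kb from the gene's start. Each point is the authors' mean over replicates, without an error. At Hdac4 5hmC rises from 0.34 to 3.84 between PP and DP while 5mC stays at 4.54 and 4.52, and at Jmjd1c 5hmC peaks in DP at 4.66.

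**Figure D3:**
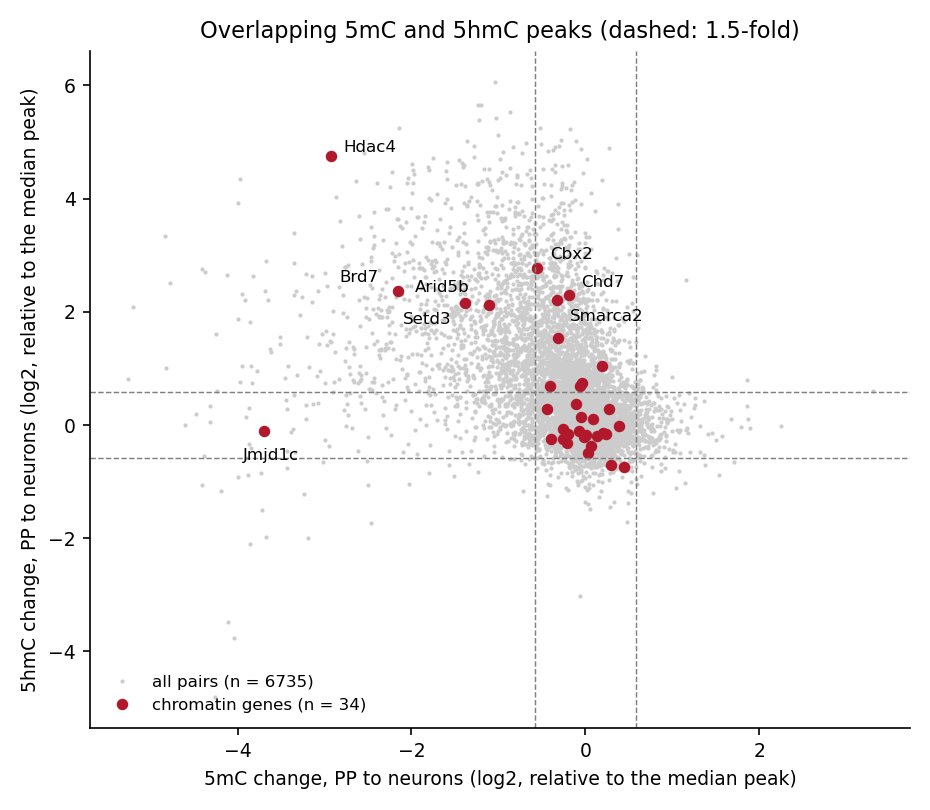
Change from PP to neurons of 5mC (x axis) and of 5hmC (y axis), both log2 and relative to the median peak, at all 6735 overlapping pairs (grey) and at the 34 pairs next to chromatin genes (red), with dashed lines at 1.5-fold. 4 red pairs lie in the upper left region of 5mC loss with 5hmC gain, and most red pairs lie near the centre.

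At the genes with the most peaks, neighbouring loci of a gene differed in the size and sign of their changes. Arid5b, an AT-rich interaction domain factor, had 17 5mC and 12 5hmC peaks. Only 2 of its 12 5hmC peaks gained from PP to neurons, 72.8 kb into the gene (2.13) and 45.5 kb upstream (1.54), and 1 lost. Of its 17 5mC peaks 1 gained and 2 lost. Hdac4 had 14 5mC and 10 5hmC peaks, of which 3 5mC peaks gained, 3 lost, and 2 5hmC peaks gained. Kdm4a had 13 5mC peaks, of which 2 gained and 3 lost from PP to neurons. Its 5mC change ran from -2.07 at 16.3 kb upstream to 0.81 at 3.3 kb into the gene.

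Chd9 had 16 5hmC and 11 5mC peaks. 3 of its 5hmC peaks gained from PP to neurons, all upstream, with the largest change (2.25) at 134 kb, and its lowest 5mC change, -2.23, was at an intragenic peak with levels of 4.54, 2.67 and 2.14. Chd7, mutated in CHARGE syndrome, had all its 12 5hmC and 11 5mC peaks inside the gene. 5 of the 5hmC peaks gained from PP to neurons, between 0.82 and 2.29, and none lost, while 1 5mC peak lost. Expression of Chd7 was lowest in neurons, with 15540, 26647 and 4509. The 2.29 gain was at a low peak with 2.23, 2.98 and 4.44, where 32.1% of like-level peaks had a smaller change.

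**Figure D4:**
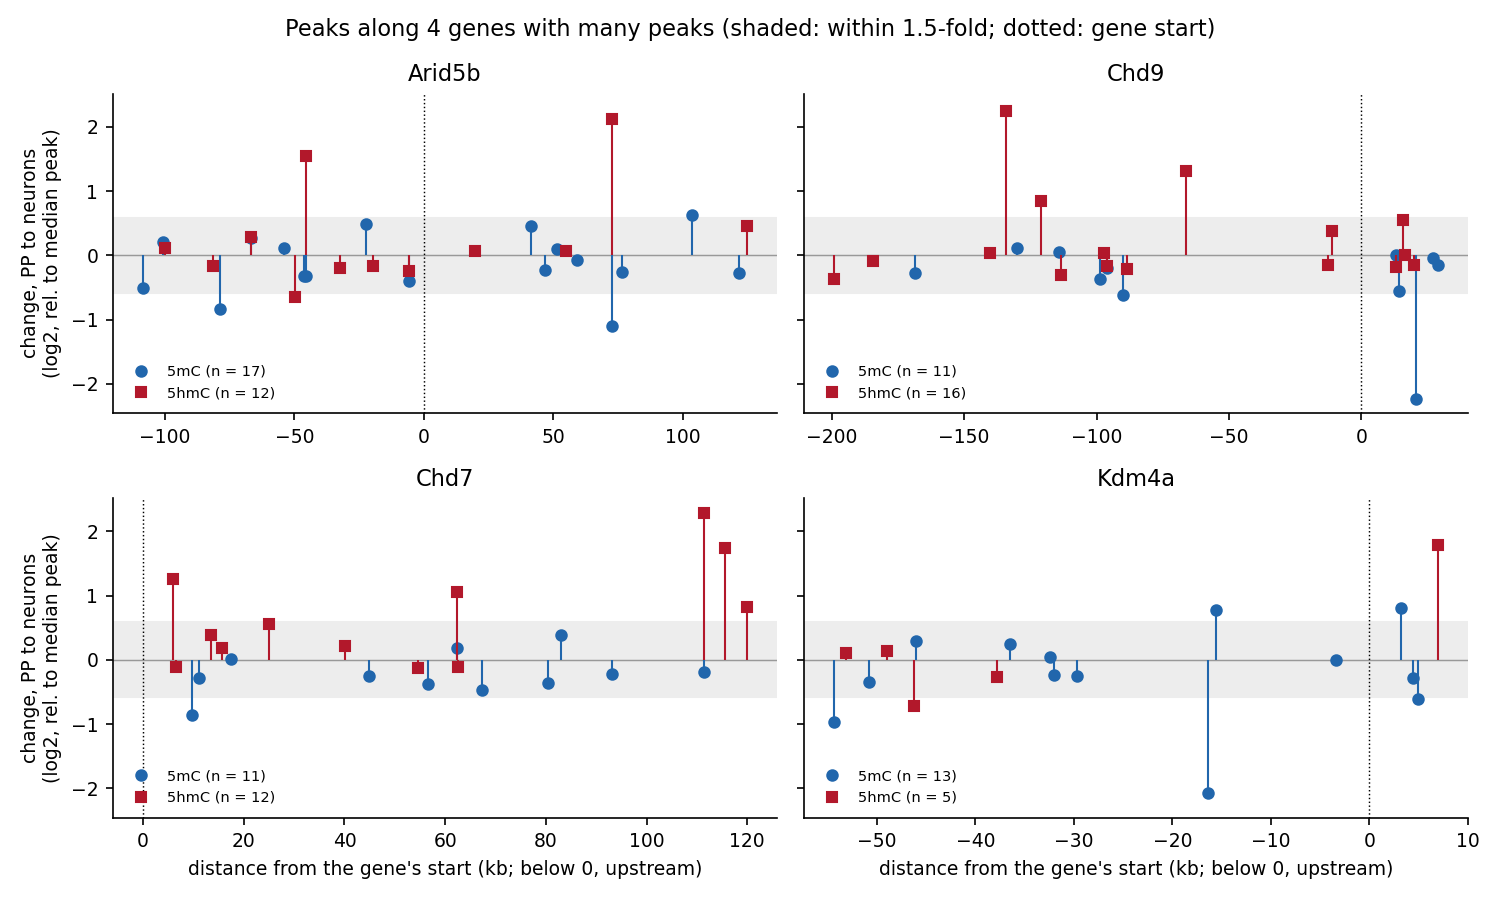
Change from PP to neurons (y axis, log2, relative to the median peak) of each 5mC (circles) and 5hmC (squares) peak against its distance from the gene's start (x axis, kb, negative upstream) at Arid5b, Chd9, Chd7 and Kdm4a. Shading marks changes under 1.5-fold. The 5hmC peaks of Chd7 reach 2.29 at 111 kb from the start, and at Arid5b 2 of 12 5hmC peaks gain.

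Few peaks lay within 1 kb of the start of the gene: 4 of 306 5mC peaks (1.31% against 2.99% of all) and 12 of 236 5hmC peaks (5.08% against 3.21%). The 5mC peaks, at Smarcd1, Smarca1, Hdac6 and Brd9, changed by -0.04 to 0.39 from PP to neurons. Of the 12 5hmC peaks 1 gained, at Brd9, a subunit of non-canonical BAF, with 5.32, 5.54 and 5.99. The 4 that lost were those of Chd2, Hdac1, Arid3b (4.59, 4.40 and 3.69) and Brd1 (4.46, 4.33 and 3.66). The other 7, at Smarcd2, Chd4 (2 peaks), Hdac6, Hdac7, Ezh1 and Hdac11, changed by -0.56 to 0.26. Of all 1526 5hmC peaks within 1 kb of a start, 17.6% gained and 8.45% lost from PP to neurons, and the difference of the 12 peaks from these was not tested.

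Expression of the 94 genes was available as 1 value per population from the authors' earlier RNA sequencing of the same populations, on a scale the tables do not name, so levels are compared within a gene only. From PP to DP 11 genes were at least 1.5-fold higher and 1 was lower, 11.7% and 1.06% against 14.1% and 16.5% of all genes. From DP to neurons 16 were higher and 11 lower, 17.0% and 11.7% against 26.1% and 26.3%. From PP to neurons 37 were higher and 8 lower, 39.4% and 8.51% against 30.1% and 31.0%. The median change from PP to neurons was 0.40 on the log2 scale relative to the median gene, and the median of the PP-DP step was 0.28. All but Kdm4d had a mean expression of at least 50. Among genes at that level 30.5% were higher and 26.2% lower, and 36 and 8 of the 93 chromatin genes were. These counts kept the median of all genes as reference. Relative to the median of the genes at that level, 30 chromatin genes were higher and 11 lower. The shares of all such genes were not computed with that reference.

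The genes with higher values in neurons included 9 of 19 demethylases, 8 of 15 deacetylases, 15 of 30 remodellers, 3 of 14 methyltransferases, 2 of 13 readers and Polycomb genes and none of 3 acetyltransferases, where 30.1% of all genes were higher. Among demethylases the largest rise was that of Kdm4d, whose values of 2.2, 4.6 and 12.1 were close to nil, and the largest fall was that of Jmjd5, with 631.9, 517.3 and 210.4. 7 of the 11 genes at least 1.5-fold higher in DP than in PP were demethylases. That was 36.8% of the 19 demethylases, where 14.1% of all genes were higher. Kdm4d was 1 of these 7, and Kdm4b (0.590) lay just inside the cut-off, with Kdm1b (0.579) just outside it. Among deacetylases Hdac5, a class IIa enzyme, had the largest rise, with 4181, 8292 and 15130, and Hdac9 the largest fall. Among remodellers the largest rise was that of Chd5, a neuronal NuRD ATPase, with 729.3, 659.2 and 5282, and the largest fall that of Arid5a, with 270.1 and 206.5 in the progenitors and a change of -2.40 from PP to neurons. Ezh1 and Setd8 were the extremes of the methyltransferases, and Setd8, the H4K20 monomethyltransferase, had 5671, 4524 and 3910, a change of -0.53. Kat2a, a histone acetyltransferase of the SAGA complex, had 4796, 3819 and 2221, and Crebbp 9666, 11991 and 12582. Brd9 was the reader with the largest rise, with 3264, 4229 and 5990, and Cbx5, the heterochromatin protein HP1 alpha, had the largest fall, with 35915, 36600 and 22646.

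**Figure D5:**
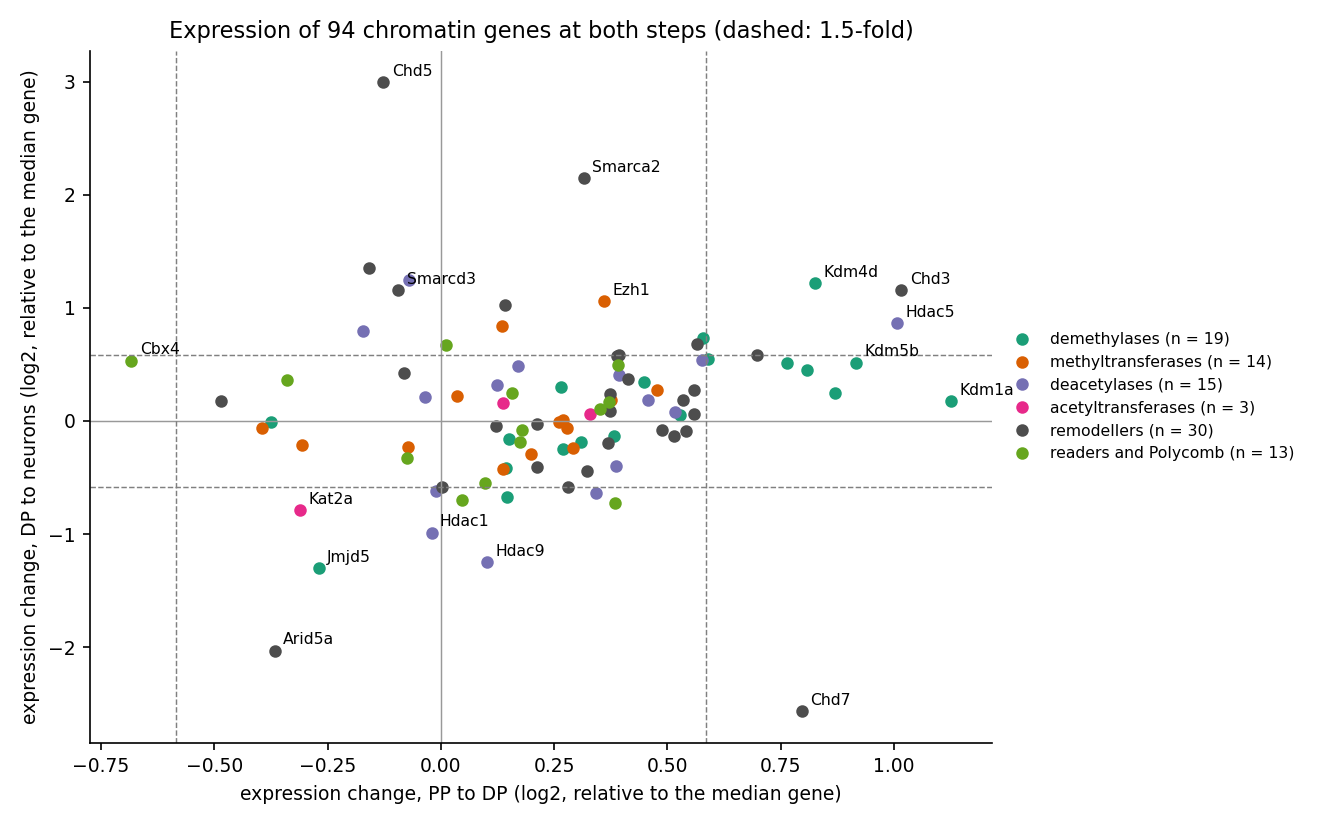
Expression change of each of the 94 chromatin genes from PP to DP (x axis) and from DP to neurons (y axis), log2 of value + 1 and relative to the median gene, coloured by role, with dashed lines at 1.5-fold. Chd5 and Smarca2 change mainly at the DP-neuron step, Kdm1a and Hdac5 already from PP to DP, and Chd7 is higher in DP and lowest in neurons.

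Expression was set beside the marks gene by gene. Of the 30 genes with a 5hmC gain from PP to neurons, 14 were at least 1.5-fold higher in neurons and 1 was lower, with a median expression change of 0.41. Of the 18 genes with a 5mC loss, 5 were higher and 1 was lower, with a median of 0.23. Over all 94 chromatin genes, whatever their peaks did, the median was 0.40 and 39.4% were higher. Of the 18 genes with a 5hmC loss, 6 were higher and 2 were lower, with a median of 0.08. Of the 5 genes with a 5mC gain, 1 was higher and 0 were lower, with a median of -0.29. Among all genes in the tables with such a 5hmC gain the median was 0.13 and 37.5% were higher. Among all with such a 5mC loss they were 0.14 and 37.2%. With a 5hmC loss they were 0.08 and 34.6%, and with a 5mC gain -0.06 and 28.8%. A gene with peaks of more than 1 kind of change was counted in each of these sets. These differences were not tested. Chd5 and Ezh1, which rose in neurons, had no 1.5-fold change of either mark from PP to neurons. At the DP-neuron step, however, 1 5mC peak of Chd5 gained (0.587), just past the cut-off.

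Marker genes were looked up in the expression values of the populations. These values come from the earlier RNA sequencing and from no sample of this series. They therefore cannot check the labels of the immunoprecipitated samples. In such bulk expression values fewer cells of a type and less RNA per cell cannot be told apart. The summed values of Pax6, Sox2, Hes1, Hes5 and Vim were highest in PP, those of Eomes, Btg2, Neurog2, Insm1 and Dll3 in DP, and those of Tubb3, Dcx, Neurod6, Tbr1 and Bcl11b in neurons. Btg2 and Tubb3 are the reporter genes used for sorting, so their part in these sums was favoured in advance. Each of the other DP and neuron markers named was also highest in its own population. 3 of 4 interneuron markers were listed (Dlx1, Dlx2 and Gad1), and their sum was 898, 3434 and 9244. The sums were 352, 308 and 86.1 for 3 endothelial markers, 309, 189 and 74.9 for 2 of 3 microglial markers, 288, 381 and 35.4 for 2 markers of the oligodendrocyte lineage, and 174.5, 94.8 and 14.9 for 2 astrocyte markers, with Gfap at 0 in neurons. The part of these cells in the levels above was not tested.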

How the data were processed

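Cells of E14.5 mouse cortex were profiled by MeDIP (5mC) and hMeDIP (5hmC). According to the methods, the authors aligned reads to mm10 with BWA 0.7.8-r455, called peaks with SICER 1.1, merged peaks found in all replicates, removed repeats, computed TMM levels with DiffBind and annotated peaks with HOMER 4.7 (versions from the submitters' processing notes). The deposited level columns hold the authors' mean log2 level per peak and population. The deposited expression and distance columns hold a score: an expression value from earlier RNA-seq of the authors, and the distance in bp to the gene's start. Another 20 columns hold the authors' own fold changes and p-values and were not used. The tables hold no counts, so the reads behind each value are not known here.

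All rows were used. Members were rows whose symbol matched the stated names. Members and gene lists were chosen with earlier results of these data known. Changes were differences of mean levels minus the median difference over all peaks of the mark. The minimum was 1.5-fold (0.58 on the log2 scale), without a test since each population had 1 value. Like-level percentiles used the 1000 peaks nearest in mean level. Expression was compared as log2(value + 1), a pseudocount of 1, minus the median of all genes. Peaks were paired at an overlap of at least 1 bp, and RefSeq genes and promoters came from GRCm38.p6. All 94 symbols matched a RefSeq gene, and 75 had a promoter window.

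Named loci were, by rule, the 2 member peaks farthest out among like-level peaks for each mark, direction and successive step, up to 6 pairs with 5mC loss and 5hmC gain (4 existed), the 3 genes with the most peaks of each mark, the largest rise and fall of expression in each role, peaks within 1 kb of a start, and 23 textbook genes. 19 of these 23 had a peak under their symbol, and Ezh2, Ep300, Kmt2a and Kmt2d did not. Others were named after their values were seen, among them Hdac7, Chd3, Cbx2 and Jmjd1c.

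Steps were tested on simulated data. Alternatives were no centring, a 2-fold minimum, peaks of high level, peaks near genes, autosomes only, other pseudocounts and overlaps. Numbers were computed with python, pandas and numpy. Peak sequences and the input samples were not analysed here.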

Additional observations from a re-analysis of the deposited data

How the results depend on the processing

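Of 88 recomputed counts of chromatin gene peaks, pairs or genes, 47 stayed within 1.5 times the reported count and 41 did not. Gains and losses are given below in this order, for PP-DP, DP-neuron and PP-neuron changes in turn, and only where the count moved beyond 1.5 times. Without subtraction of the median, 5mC gains from DP to neurons numbered 4 and losses 38, and losses from PP to neurons 46. With a minimum of 2-fold the 5mC peaks numbered 1 and 2, 1 and 9, and 3 and 9, the 5hmC peaks 15 and 1, 10 and 5, and 38 and 4, and the genes with higher or lower expression 3 and 0, 9 and 4, and 20 higher. Among peaks with a mean level at or above the median, the 5mC peaks numbered 0 and 3, 3 and 6, and 1 and 4, and the 5hmC peaks 6 and 1, 9 and 2, and 17 and 1. Among peaks inside the gene or within 10 kb of its start, 5mC losses from PP to DP numbered 11, 5mC gains and losses 8 and 15 from DP to neurons and 4 and 14 from PP to neurons. The 5hmC counts there were 17 gains, then 25 gains and 8 losses, then 38 gains. Fewer peaks or genes can pass each of the last 3 settings by construction. Counts on autosomes alone, with other pseudocounts, among genes with mean expression of at least 50 and with a longer overlap of pairs all stayed within 1.5 times. No paired analysis was possible because the tables hold 1 mean per population, and leaving out a replicate was not possible for the same reason.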

Other observations

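Further genes of the same processes, not matched by the symbol rule, were described from a list of 70, of which 61 were in the tables. Of their 197 5mC peaks, 9 gained and 32 lost at least 1.5-fold from PP to neurons, that is 4.57% and 16.2% against 5.00% and 10.2% of all 5mC peaks. Of their 201 5hmC peaks, 56 gained and 13 lost, 27.9% and 6.47% against 22.1% and 7.71% of all 5hmC peaks. Expression from PP to neurons was at least 1.5-fold higher for 15 of the 61 genes and lower for 13, where 30.1% and 31.0% of all genes were higher and lower. No test was run on these counts.

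Some BAF subunits were among the genes that differed most. Actl6a and Ss18, subunits of the progenitor complex, had expression values of 4238, 4324 and 2449 and of 4106.5, 4304 and 2254 in PP, DP and neurons. Their neuronal counterparts were higher in neurons, with 38.2, 377.6 and 6691 for Actl6b and 1690.5, 3033 and 8908 for Ss18l1. Higher in neurons, too, were the subunits Dpf1, with 1218, 1260 and 10884, and Dpf3, with 48.5, 19.6 and 378.8. Of other listed BAF or PBAF subunits, Bcl7a changed by 1.63 from PP to neurons. Dpf2 (-0.29), Pbrm1 (0.30) and Bcl7b (-0.02) changed by less than 1.5-fold. Dpf1 had a 5mC peak 57806 bp past its start (chr7:29361679-29361836) with levels of 6.14, 5.65 and 2.54, the lowest PP-neuron change (-3.43) among the 1000 peaks of like level. The 5hmC peak that overlaps it (chr7:29361658-29361845) had 5.22, 5.73 and 4.69, a change of -1.03 from DP to neurons. Another 5hmC peak of Dpf1, elsewhere (chr7:29343263-29343390), had 4.46, 5.53 and 7.22, a change of 2.84 that was larger than that of 99.9% of like-level peaks. The 2 5mC peaks of Ss18l1 and the 5mC peak of Actl6b changed by less than 1.5-fold from PP to neurons, and an intragenic 5hmC peak of Actl6b (chr5:137555125-137555274) changed by -0.70, with 5.04, 4.98 and 4.26. Suz12 and Eed, core subunits of Polycomb repressive complex 2, changed in expression by -1.02 and -0.94 from PP to neurons, while their partner Ezh1 changed by 1.42.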
